A study of Homo sapiens with 4 samples.

Results

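The chromatin around 4 transcription factors of pancreatic acinar cells and 6 genes for their secreted enzymes was examined in ATAC-seq peak lists. The factors were PTF1A, RBPJL, NR5A2 and BHLHA15, and the enzymes were CPA1, CELA3A, PRSS1, CTRB1, PNLIP and CEL. Peaks of the 4 deposited lists were merged into 164301 regions, and the 68 merged regions that overlapped one of these gene bodies (GENCODE release 44) widened by 20 kb on each side were taken. The choice used position alone, not the height of a peak. The factor loci held 42 of the regions and the enzyme loci 26, and 9 of the 10 genes had at least 1 region.

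The cells were pancreatic progenitors derived from MEL1, an established human embryonic stem cell line, which the methods give as MEL1 INSGFP/W, a line with GFP at the insulin gene. All 4 libraries share this background. They were kept for 7 days with the solvent DMSO or with 1 μM I-BET151, a small molecule that blocks the bromodomains of the BET proteins. Both groups grew in the same basal medium (EF6), which supplied EGF, bFGF and a TGF-β receptor inhibitor. Each group had 2 libraries of 50000 cells from this single line, and because the labels do not say that they came from separate cultures, p-values measure only the spread between these libraries.

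Acinar cells make and secrete the digestive enzymes of the pancreas. PTF1A is a basic helix-loop-helix factor that acts early in multipotent pancreatic progenitors together with RBPJ and later, in acinar cells, in a complex with the RBPJ relative RBPJL. NR5A2, a nuclear receptor, and BHLHA15 (MIST1), a helix-loop-helix factor of secretory cells, sustain the acinar program. The enzyme genes encode a carboxypeptidase (CPA1), an elastase (CELA3A), trypsinogen (PRSS1), chymotrypsinogen (CTRB1), pancreatic lipase (PNLIP) and a bile salt-activated lipase (CEL). ATAC-seq marks DNA that a transposase can reach, so that a peak is open chromatin and not a measure of transcription.

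The sequences of 6 of these regions are shown as examples from the factor and enzyme loci. Each is the plus strand of hg38 around the summit of the merged region, and all 10 genes lie on the plus strand. Capitals mark every match to the motifs searched, on either strand. The motifs with a match were the E-box of helix-loop-helix factors (CANNTG), the GATA motif (AGATAA), the TEAD motif (GGAATG), the AP-1 motif (TGANTCA) and the RBPJ box (TGGGAA). Names give the gene and the distance of the summit from its canonical start site.
PTF1A -5.3 kb: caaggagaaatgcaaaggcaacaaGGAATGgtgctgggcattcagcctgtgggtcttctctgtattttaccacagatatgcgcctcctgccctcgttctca
RBPJL -5.6 kb: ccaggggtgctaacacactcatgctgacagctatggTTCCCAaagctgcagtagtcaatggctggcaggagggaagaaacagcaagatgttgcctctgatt
NR5A2 -0.2 kb: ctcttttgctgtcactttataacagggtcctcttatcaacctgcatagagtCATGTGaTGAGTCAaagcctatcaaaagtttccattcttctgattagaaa
NR5A2 +123.2 kb: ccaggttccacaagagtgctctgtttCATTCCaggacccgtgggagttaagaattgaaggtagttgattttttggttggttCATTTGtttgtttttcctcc
CPA1 -0.2 kb: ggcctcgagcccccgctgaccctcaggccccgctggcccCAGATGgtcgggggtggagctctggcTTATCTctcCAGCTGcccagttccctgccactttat
CPA1 +12.1 kb: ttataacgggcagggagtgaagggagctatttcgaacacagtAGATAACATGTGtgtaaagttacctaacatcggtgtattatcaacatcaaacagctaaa
They lie at chr10:23186965-23187065, chr20:45301164-45301264, chr1:200027494-200027594, chr1:200150908-200151008, chr7:130380242-130380342 and chr7:130392539-130392639, in the order shown. The NR5A2 promoter sequence held an E-box and an AP-1 match 1 base apart, and the CPA1 promoter sequence held 2 E-boxes with a GATA match between them.

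The 4 lists differed in depth and length. With DMSO there were 82568 and 38295 peaks, from an estimated 38.7 and 36.6 M reads. With I-BET151 there were 84995 and 111324 peaks, from 12.5 and 16.0 M reads, fewer than with DMSO. Peaks lay within 1 kb of the start sites of 6 and 5 of 7 pancreatic progenitor markers with DMSO and of all 7 in both I-BET151 lists. At this distance PDX1 had a peak in the I-BET151 lists alone, but a PDX1 region at -1.7 kb was called in all 4 lists. Of 4 pluripotency markers 0, 0, 0 and 1 had a peak within 1 kb, of 6 endocrine markers 1, 0, 2 and 2, and of 4 duct markers 3 in each list. Of 4 liver markers 2 had a peak in each list, with AFP and ALB at 0, and of 4 mesenchyme markers 3, 3, 4 and 4 had one. The acinar genes themselves stood low, with a peak at 3, 2, 3 and 3 of the 10 start sites, against 61.1%, 56.1%, 66.5% and 70.4% of all protein-coding genes.

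Open chromatin at the acinar loci was not called more often with I-BET151 beyond the spread of the libraries. DMSO replicate 1 and replicate 2 held 39 and 21 of the 68 regions, and I-BET151 replicate 1 and replicate 2 held 30 and 41, so that the groups overlapped. These were 57.4%, 30.9%, 44.1% and 60.3% of the members, against 47.9%, 22.9%, 49.2% and 67.7% of all merged regions, whose groups did not overlap (78671 and 37658 against 80816 and 111206 regions). The means were 30.0 ± 12.7 and 35.5 ± 7.78 regions (SD, n = 2 each; exact permutation test, two-sided, p = 0.67, where 2 against 2 libraries cannot go below 0.33). At the factor loci 20, 13, 20 and 29 of 42 regions were called, in the same order of libraries, and at the enzyme loci 19, 8, 10 and 12 of 26. The enzyme shares of 73.1%, 30.8%, 38.5% and 46.2% were highest in DMSO replicate 1, and the factor shares of 47.6%, 30.95%, 47.6% and 69.0% were highest in I-BET151 replicate 2, which was also the fullest list over all regions.

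**Figure D1:**
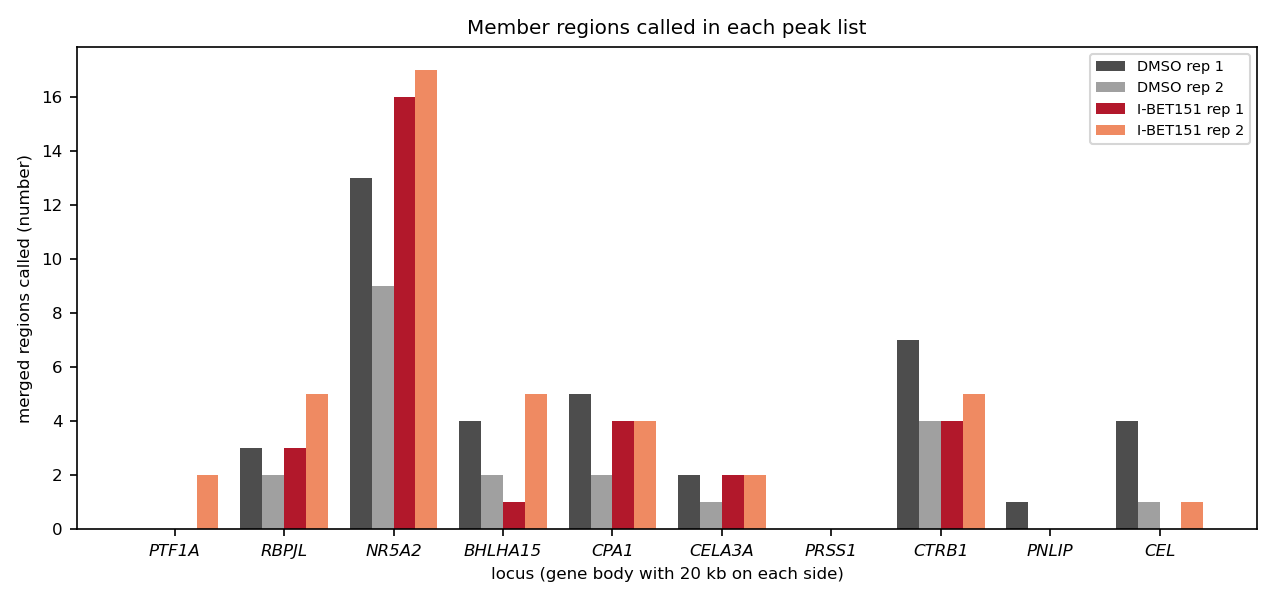
Number of merged regions called (y axis) at each locus (x axis, gene body with 20 kb on each side) in each of the 4 peak lists, 1 bar per library, gray for DMSO and red for I-BET151. NR5A2 holds 13, 9, 16 and 17 regions, PRSS1 none in any list, and CEL 4 in DMSO replicate 1 against 1, 0 and 1 in the others.

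A region was termed gained when both I-BET151 lists and neither DMSO list held it, and lost in the opposite case. Of the 68 regions 7 were gained (10.3%), whereas 17.0% of all merged regions were gained. The gained regions comprised 4 at NR5A2 and 1 each at RBPJL, CPA1 and CTRB1. Of the 68 regions 5 were lost (7.35%), against 2.37% of all merged regions, and these comprised 2 at NR5A2 and 1 each at RBPJL, CTRB1 and CEL. The 5 lost regions had folds of 2.50 to 4.15 over local background and pileups of 13 to 24 reads in the DMSO lists, whose peaks had median pileups of 19 and 22 reads. No member was lost when a -log10 p of at least 10 was required, against 0.269% of all regions. The higher share of lost regions among the members did not hold with equal numbers of peaks in each list (2.94%, against 6.03% of all) or at a -log10 p of at least 5 (1.69%, against 1.94%). It held without I-BET151 replicate 1 (7.94%, against 2.75%) and without I-BET151 replicate 2 (12.3%, against 5.82%). It also held with windows of 5 kb (6.67%) and of 50 kb (4.88%), both against 2.37%. The depth of the libraries moved with the groups, as given above, and its part in the lost calls was not tested. Leaving out I-BET151 replicate 1 gave 20 gained regions (31.7%, against 43.7% of all), leaving out I-BET151 replicate 2 gave 13 (22.8%, against 35.8%) and leaving out DMSO replicate 1 gave 12 (21.4%, against 26.8%). Without DMSO replicate 2 there were 17 lost regions (26.2%, against 20.9% of all), and without DMSO replicate 1 there were 8 (14.3%, against 4.56%).

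Most regions were seen in few lists. Of the 68, 10 were called in all 4 lists (14.7%, against 15.6% of all merged regions), 8 in 3 lists (11.8%, against 8.26%) and 5 in 1 list of each condition (7.35%, against 5.02%). Of the remainder 15 were called in a single DMSO list (22.1%, against 19.4%) and 18 in a single I-BET151 list (26.5%, against 32.4%). At the enzyme loci 10 of 26 regions were in a single DMSO list (38.5%, against 19.4% of all merged regions), and at the factor loci 15 of 42 were in a single I-BET151 list (35.7%, against 32.4%).

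**Figure D2:**
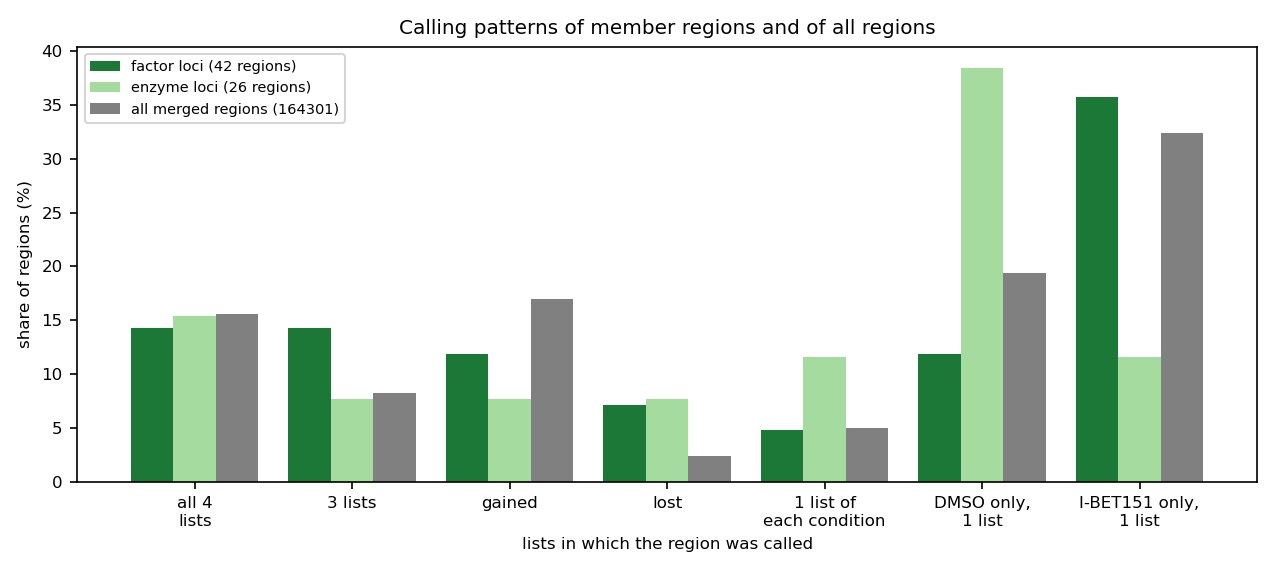
Share of regions in percent (y axis) by the lists that called them (x axis) for factor loci, enzyme loci and all merged regions, 1 bar per set. The enzyme loci have the tallest bar for a single DMSO list, 38.5%, and both sets of loci lie under the 17.0% of all regions for gained ones.

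Peaks around PTF1A were called in a single library. No list had a peak within 1 kb of its start site. The I-BET151 replicate 2 list held 1 region at -5.3 kb with a fold of 7.36 (percentile 65.1 within that list) and a pileup of 19 reads, and another at +6.7 kb with a fold of 3.67 and a pileup of 10 reads. The other 3 lists held neither, so that nothing at PTF1A was repeated between replicates.

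At RBPJL the open chromatin in the replicated regions lay mostly upstream of the gene with higher folds in the I-BET151 lists, while the start site itself was not called in any list. The region at -5.6 kb had a fold of 3.12 in DMSO replicate 1, was not called in DMSO replicate 2, and had folds of 8.82 and 9.31 with I-BET151. Its percentile within each list was 15.7 with DMSO and 82.8 and 80.3 with I-BET151. The region at -13.1 kb, called in all 4 lists, had folds of 3.79 and 3.56 with DMSO and of 5.43 and 9.03 with I-BET151. Its percentiles were 45.7 and 32.3 with DMSO and 48.4 and 78.4 with I-BET151. Of all regions in all 4 lists, 90.1% had both I-BET151 values higher by fold and 40.8% by percentile. The gained region at -15.8 kb had folds of 6.55 and 4.34 in the I-BET151 lists. The lost region at +31.1 kb, whose nearest start site was that of SDC4, had folds of 2.50 and 2.55 in the DMSO lists.

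For a summary of each locus, the percentile by fold within a list was averaged over the regions of the locus, with 0 for a region that the list did not hold. This locus score at RBPJL was 10.4 and 5.60 with DMSO and 32.6 and 38.0 with I-BET151. The groups did not overlap (7.98 ± 3.37 against 35.3 ± 3.78, SD, n = 2 each, exact permutation p = 0.33, the smallest possible). Both I-BET151 scores were likewise above both DMSO scores at 51.3% of all protein-coding loci with a region. The difference of 27.3 at RBPJL ranged from 12.3, with windows of 5 kb, to 46.8, with the regions nearest to the RBPJL start site alone. It was the largest difference among the 9 loci.

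NR5A2 held 26 regions, of which 1 lay at the start site, 21 in introns, 2 in exons and 2 downstream of the gene. The promoter region at -0.2 kb was among the strongest of all members, with folds of 7.89 and 8.15 with DMSO and of 8.92 and 11.5 with I-BET151. Within the lists its percentile was 96.4 and 94.6 with DMSO and 83.5 and 90.4 with I-BET151, so that it stood lower among the I-BET151 peaks although its fold was higher. The intronic region at +123.2 kb (intron 7) stood the other way. Its folds were 4.22 and 5.19 with DMSO and 11.5 and 13.6 with I-BET151, a ratio of the means of 2.66, and its percentiles were 62.8 and 74.0 with DMSO and 93.3 and 95.7 with I-BET151. In both regions the groups did not overlap in fold or in percentile. Among all regions called in all 4 lists, both I-BET151 folds lay above both DMSO folds in 90.1%. Both I-BET151 percentiles lay above both DMSO percentiles in 40.8% of them and below in 10.3%.

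Around these 2 regions NR5A2 carried 3 further intronic regions in all 4 lists. The region at +11.2 kb (intron 1) had folds of 3.51 and 3.63 with DMSO and of 7.13 and 7.27 with I-BET151. The region at +26.1 kb (intron 5) had folds of 5.61 and 5.16 with DMSO and of 8.94 and 10.9 with I-BET151, while its percentiles of 85.8 and 73.6 with DMSO overlapped those of 83.6 and 88.2 with I-BET151. The region at +78.9 kb (intron 5) had folds of 3.77 and 4.01 with DMSO and of 5.41 and 7.59 with I-BET151. Folds higher in both I-BET151 lists were found in 90.1% of all regions in all 4 lists, as given above.

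Most gained regions of NR5A2 lay near the start of the gene and stood low in the I-BET151 lists. Those at +1.5 kb and +6.0 kb in intron 1 had folds of 4.07 and 2.75, and of 4.13 and 4.62, in the I-BET151 lists. Their percentiles were 13.4 and 0.494, and 14.6 and 25.8. The gained region at +15.0 kb in intron 2 had folds of 3.01 and 3.07 (percentiles 0.274 and 1.95). The fourth, at +149.4 kb in exon 8, had folds of 5.13 and 4.70 (percentiles 40.9 and 26.8). The lost regions lay toward the end of the gene, at +126.7 kb in intron 7 (folds of 4.15 and 2.78 with DMSO) and at +152.5 kb downstream (3.46 and 2.99). The locus score of NR5A2 was 25.5 and 14.8 with DMSO and 23.6 and 29.9 with I-BET151, and the groups overlapped (exact permutation p = 0.67).

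BHLHA15 held 8 regions, and its start site was called in I-BET151 replicate 2 alone, with a fold of 4.24 (percentile 18.8) and a pileup of 19 reads. Its highest region, at +6.8 kb, was called in 3 lists, with a fold of 2.65 in DMSO replicate 2, 6.03 in I-BET151 replicate 1 and 7.45 in I-BET151 replicate 2. The region at -6.4 kb was also called in 3 lists, at folds of 3.08 and 3.05 with DMSO and 3.97 in I-BET151 replicate 2. The locus score was 4.45 and 1.895 with DMSO and 7.26 and 13.1 with I-BET151. The scores did not overlap, with I-BET151 higher as at 51.3% of all protein-coding loci with a region. All 4 were low because most regions were absent from most lists.

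**Figure D3:**
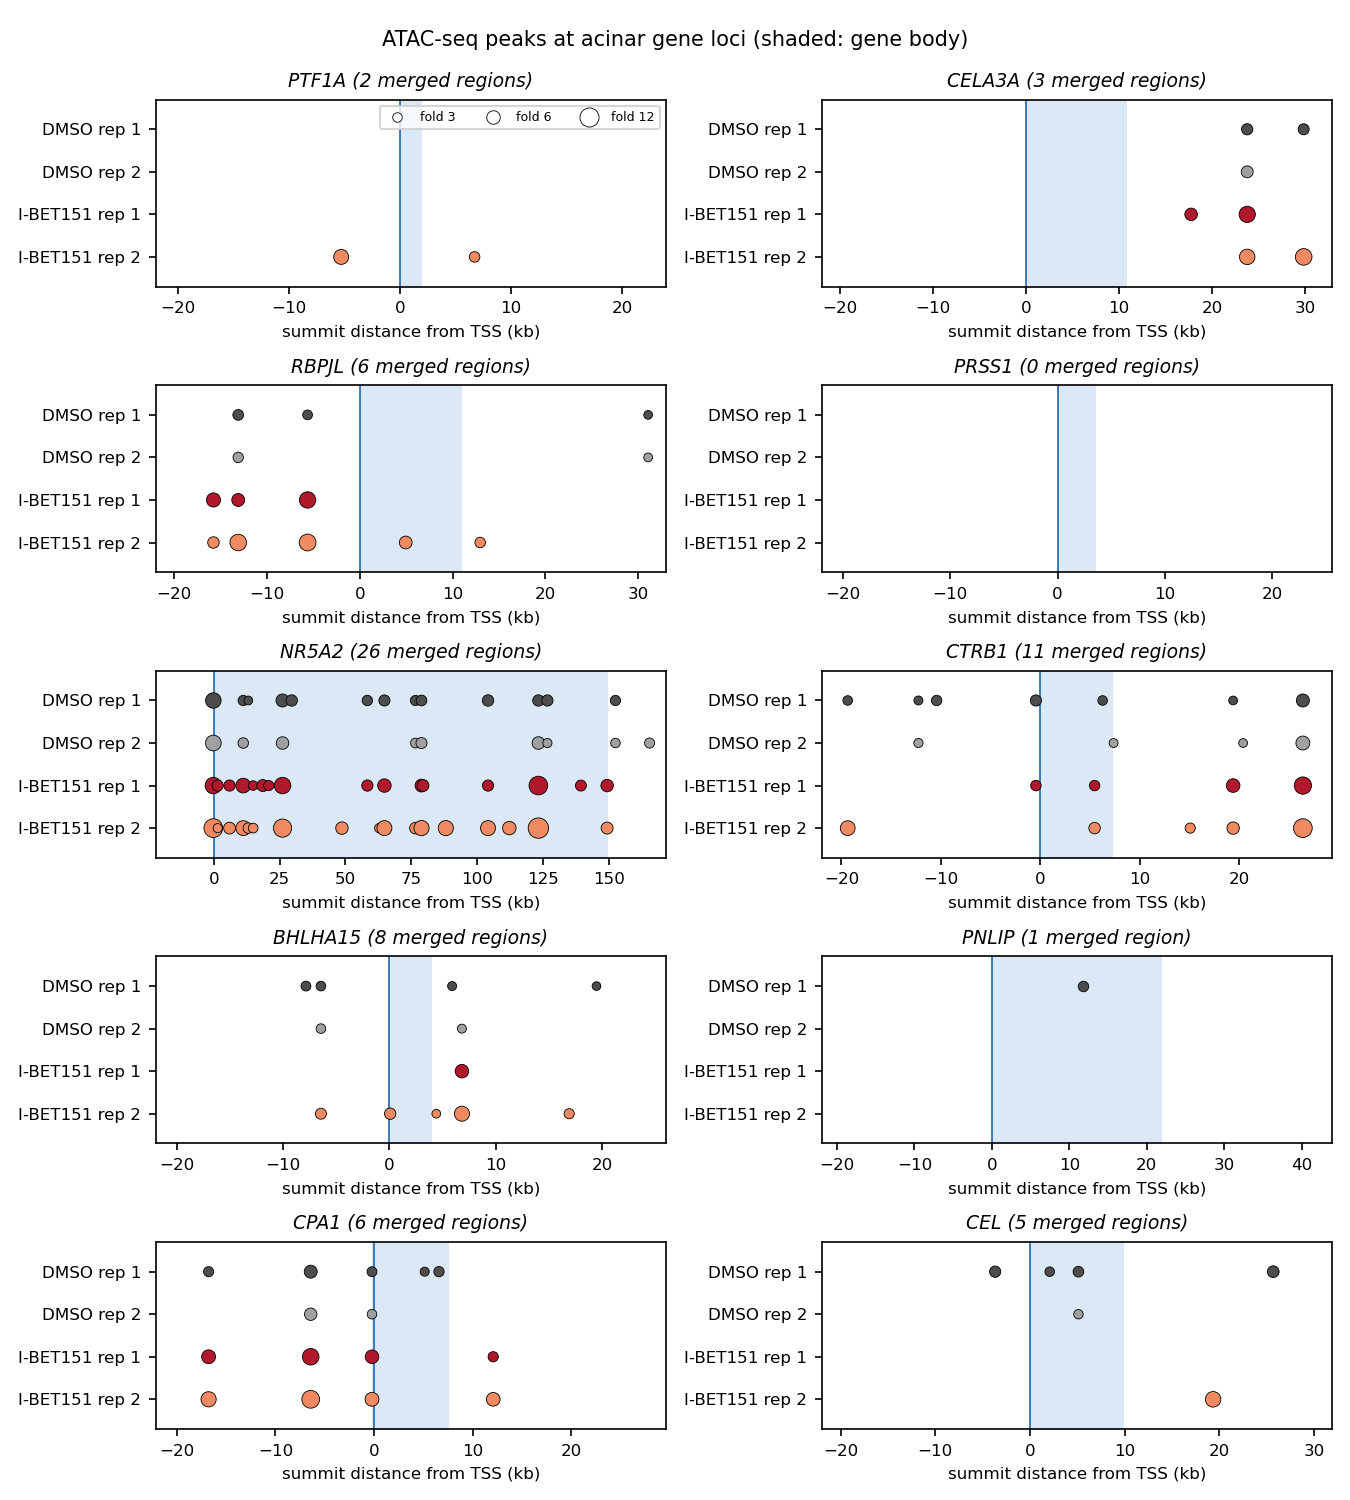
Called peaks at the 10 loci, with the distance of the region summit from the canonical start site in kb on the x axis, 1 row per library on the y axis, circle area in proportion to fold enrichment, and the gene body shaded. PTF1A has circles in I-BET151 replicate 2 alone, NR5A2 has 26 regions along its body, and PRSS1 has none.

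CPA1 was the enzyme locus with the most regions in all 4 lists, 2 of 6. Its promoter region at -0.2 kb was called in all 4 lists, with folds of 3.24 and 3.02 with DMSO and of 6.10 and 6.34 with I-BET151. The percentiles were 20.05 and 11.9 with DMSO and 58.8 and 52.9 with I-BET151, and neither measure overlapped between the groups. Among all regions in all 4 lists both I-BET151 values were higher in 90.1% by fold and in 40.8% by percentile. In the DMSO lists 24 and 22 reads lay behind these folds, and in the shallower I-BET151 lists 19 and 24. The region at -6.4 kb, also in all 4 lists, had higher folds, 5.49 and 5.08 with DMSO and 9.02 and 10.4 with I-BET151, and percentiles that overlapped (85.1 and 72.7 against 84.0 and 86.0).

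The region at -16.8 kb, farther upstream of CPA1, had a fold of 3.37 in DMSO replicate 1, was not called in DMSO replicate 2, and had folds of 6.29 and 7.59 with I-BET151. The gained region at +12.1 kb, downstream of the gene, rested on pileups of 6 and 15 reads, with folds of 3.47 and 6.18. The locus score was 27.9 and 14.1 with DMSO and 34.6 and 43.0 with I-BET151, without overlap, as at 51.3% of all protein-coding loci with a region. The difference of 17.8 was 0.196 with equal numbers of peaks in each list, 37.0 without DMSO replicate 1 and 10.9 without DMSO replicate 2.

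The start site of CELA3A was not called in any list, and its 3 regions lay downstream. The region at +23.8 kb had folds of 4.18 and 4.67 with DMSO and of 8.70 and 7.86 with I-BET151. Both I-BET151 folds were higher in 90.1% of all regions in all 4 lists. This CELA3A region lay 282 bp from the start site of another protein-coding gene, known by its identifier alone. The locus score of CELA3A, 38.8 and 21.7 with DMSO and 42.0 and 49.4 with I-BET151, therefore rested on chromatin nearer to another gene.

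At CTRB1, 11 regions were spread over both flanks. The promoter region at -0.4 kb was called in both replicate 1 lists, with a fold of 4.12 with DMSO and 3.64 with I-BET151, and in neither replicate 2 list. The gained region at +5.5 kb (intron 6) had folds of 3.60 and 4.32, and the lost region at -12.3 kb, 430 bp from the start site of the paralog CTRB2, had folds of 2.66 and 2.80. The region with the highest fold, at +26.4 kb toward BCAR1, was called in all 4 lists at 5.58 and 6.38 with DMSO and 9.84 and 11.5 with I-BET151. Its percentiles were 85.7 and 86.6 with DMSO and 87.7 and 90.6 with I-BET151. Both I-BET151 values were higher in 90.1% of all regions in all 4 lists by fold and in 40.8% by percentile. The locus scores of 18.7 and 8.65 with DMSO and 14.2 and 19.4 with I-BET151 overlapped. Of the CTRB1 gene body 21.0% matched another place on chromosome 16 at 97% identity or more over at least 200 bp, where reads may map to more than one place, although no CTRB1 region lay in such sequence.

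The lipase genes were the loci where DMSO replicate 1 alone held most of the peaks. PNLIP had 1 region, at +11.8 kb in intron 9, called in DMSO replicate 1 with a fold of 3.62 and a pileup of 13 reads. CEL had 5 regions, 4 of them in DMSO replicate 1 with folds of 3.01 to 4.55. One of these, at +5.1 kb in exon 7, was also called in DMSO replicate 2 and was the lost region of the locus, with folds of 3.75 and 2.94. The fifth, at +19.3 kb, was called in I-BET151 replicate 2 with a fold of 7.95, and 60.5% of it was repeated elsewhere on the chromosome. The locus scores of CEL, 37.7 and 1.85 with DMSO and 0 and 14.1 with I-BET151, overlapped.

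PRSS1 had no region within 20 kb of its gene body in any of the 4 lists, and the nearest merged region was 25.7 kb away. At these list depths a region without a call may still have reads under the peak threshold.

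Across the 9 loci with a region, both I-BET151 scores lay above both DMSO scores at 4 loci (RBPJL, BHLHA15, CPA1 and CELA3A), and the reverse held at 0 loci. Among all 18871 protein-coding loci with a region the same held for 51.3% and for 2.96%. The median difference was 6.99 percentile units at the 9 loci and 10.7 at all loci. The mean over the 9 loci was 22.4 and 7.62 with DMSO and 17.1 and 27.2 with I-BET151, and it did not differ beyond the spread of the libraries (difference of 7.12, exact permutation test, two-sided, p = 0.67). Without DMSO replicate 2 this difference was -0.333, without DMSO replicate 1 it was 19.8, without I-BET151 replicate 1 it was 13.4 and without I-BET151 replicate 2 it was 2.83. With equal numbers of peaks in each list it was 0.985.

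Regions called in all 4 lists had a value in every library, so that their values could be compared as well as their calls. They were 5 at NR5A2, 2 at CPA1 and 1 each at RBPJL, CELA3A and CTRB1. Both I-BET151 folds lay above both DMSO folds in 10 of 10, and in 90.1% of all 25627 regions called in all 4 lists. The median ratio of the mean folds was 1.86 for the 10 regions and 1.79 for all of them. By percentile within the list, 7 of the 10 stood higher in both I-BET151 lists (40.8% of all), and 1, the NR5A2 promoter, stood lower in both (10.3% of all). These percentiles refer to lists of 38295 to 111324 peaks and depend on the length of the list, and among the 25627 regions alone the mean rank was higher with I-BET151 in 5 of the 10 and in 12407 of all.

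Ranks were compared with limma on normal scores of the rank of each region among the 25627, with Benjamini-Hochberg adjustment. None of the 10 regions passed an adjusted p of 0.05 in either direction, whereas 3.41% of all regions passed with a higher and 1.96% with a lower rank with I-BET151. At an unadjusted p under 0.05 there were 2 of 10, against 6372 of all 25627 regions. The NR5A2 promoter region differed by -1.03 ± 0.38 (SE) in normal score (limma, adjusted p = 0.11), and the NR5A2 region at +123.2 kb by 1.05 ± 0.41 (limma, adjusted p = 0.13). The CPA1 promoter region differed by 0.62 ± 0.39 (limma, adjusted p = 0.33), and the other 7 by -0.17 to 0.42. On pileup per M reads instead of rank, all 10 were called higher with I-BET151, as were 24623 of 25603 regions, and after centering each library on its median none of the 10 was called. With regions in at least 2 lists in the test, 8 of 35 members were called, all lower with I-BET151. In that test 11725 of all 79228 regions were called, 4652 of them higher with I-BET151. Absent calls were not scored alike in all lists there, so no direction is drawn from the 8.

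**Figure D4:**
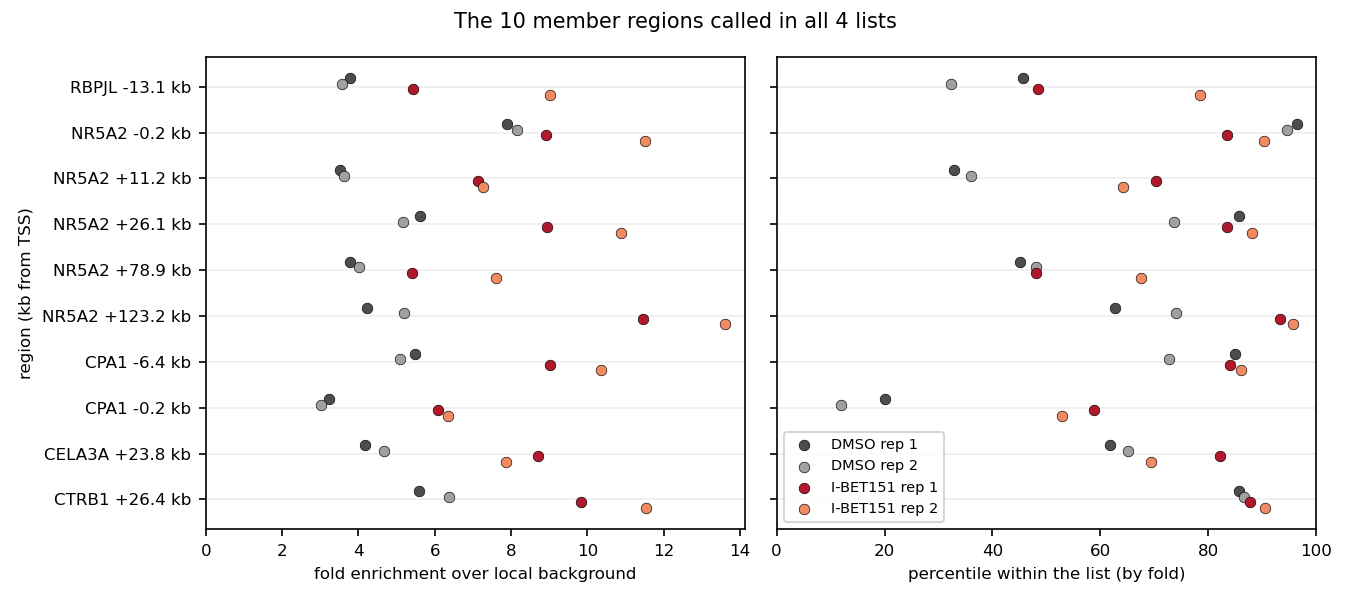
Fold enrichment (left) and percentile by fold within the list (right) on the x axes for the 10 regions called in all 4 lists (y axis), 1 point per library, gray for DMSO and red for I-BET151. The red points lie to the right of the gray ones in fold for all 10 regions, and the NR5A2 promoter region at -0.2 kb is the one whose red points lie to the left in percentile.

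Further lists of genes were counted in the same windows. Of 116 regions at 29 other secreted acinar genes, among them carboxypeptidases, elastases, amylases and REG proteins, 17 were gained (14.7%, against 17.0% of all merged regions) and 8 lost (6.90%, against 2.37%), 5 of the latter at CLPS, the gene of the lipase cofactor colipase. These 5 had folds of 2.86 to 3.83 in the DMSO lists, and 7 of the 116 regions also belonged to the 10 genes above. Among these 7 was the lost region near the CTRB2 start site, which is also counted above as lost at CTRB1. The lost share of this list is given at the main setting alone. Of the 17 regions in all 4 lists 1 was called higher by limma and 0 lower (5.88% and 0%, against 3.41% and 1.96% of all regions tested). It lay 12.5 kb upstream of KLK1, a kallikrein gene, with percentiles of 16.9 and 9.72 with DMSO and 75.3 and 86.5 with I-BET151 (limma, adjusted p = 0.023).

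The second list held 9 factors that act in acinar cells and also in other cells, such as RBPJ, TCF3 and XBP1. Of their 131 regions 26 were gained (19.8%, against 17.0%) and 2 lost (1.53%, against 2.37%), and 33 were in all 4 lists. Of these, limma called 2 higher and 0 lower (6.06% and 0%, against 3.41% and 1.96%). The PDX1 region at -1.7 kb had percentiles of 0.39 and 0.32 with DMSO and 51.8 and 44.9 with I-BET151 (limma, adjusted p = 0.015), and the MYRF region at +12.2 kb had 0.29 and 0.031 with DMSO and 52.0 and 32.3 with I-BET151 (limma, adjusted p = 0.015). MYRF encodes a membrane-bound transcription factor of acinar and other cells. CLPS, KLK1, PDX1 and MYRF were singled out after their values were seen. Start sites of these 9 factors were called in 7, 7, 8 and 8 cases, those of the 4 acinar factors in 1, 1, 1 and 2, those of the 6 enzymes in 2, 1, 2 and 1, and those of the 29 secreted genes in 9, 5, 4 and 8.

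The member regions were richer in G and C than the series as a whole. The median GC content of the 201 bases around the summit was 57.5% for the 68 regions and 47.8% for all merged regions, with 48.3% at the factor loci and 60.0% at the enzyme loci. An E-box was found in 51 of the 68 regions (75.0%, against 66.2% of all merged regions), an AP-1 motif in 13 (19.1%, against 11.01%) and an RBPJ box in 12 (17.6%, against 19.7%). A GATA motif was found in 8 (11.8%, against 14.2%), a TEAD motif in 6 (8.82%, against 15.0%) and AAGGTCA, the motif of NR5A2 itself, in 3 (4.41%, against 5.55%). The FOXA motif TGTTTAC was in 0 of 68, against 4.57% of all merged regions. The remaining motifs were the E-box forms CAGCTG, which also counts under the E-box, in 8 regions (11.8%, against 13.6%) and CATATG in 3 (4.41%, against 3.53%). The homeobox motif TAATTA was in 1 region (1.47%, against 4.72%), the ONECUT motif ATCAAT in 5 (7.35%, against 9.22%), the HNF1 motif GTTAAT in 6 (8.82%, against 8.21%) and the CTCF core AGGGGGC in 4 (5.88%, against 5.48%).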

How the data were processed

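Per the labels and the methods of the study, the authors used Bowtie2 (v2.2.5) to map ATAC-seq reads to hg38, took out duplicate and mitochondrial reads, and ran MACS2 (v2.1.2) on every library separately. For each peak the deposited lists give its summit, the fold enrichment there (ratio of the pileup to the local background, both plus 1), the p-value as −log10 and the q-value as −log10. The lists reach a q-value of 0.05 and p-values of up to 0.00113, above the 1e-05 stated in the methods. No peak of the replicate 1 lists was shorter than 200 bp, whereas the minimum was 233 bp in DMSO replicate 2 and 256 bp in I-BET151 replicate 2. Whether read extension differed between lists is not given in the sources used here.

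Peaks on the autosomes and on X and Y were merged at an overlap of 1 bp. The pileup in whole reads was solved from fold and p-value, in 99.9% or more of the peaks of each list. The read number was estimated from the lowest background of a list, its shortest peak and MACS2's default genome size. The shortest peak was taken as the read extension, so the read numbers and the pileup per M reads rest on that assumption. Percentiles and ranks were computed within a list. Calls were compared by the rules given in the text, ranks with limma 3.58.1 in R 4.3.3, and values per library with exact permutation tests (two-sided) in scipy 1.17.1, under Python 3.11.15 and pandas 2.3.3. The scripts were tested on simulated data. Counting error of a pileup is not part of an SD over 2 libraries. Repeated sequence was found with BLAST 2.17.0. Regions at start sites, gained and lost regions and the highest region of each locus were described. The sequences at NR5A2 +123.2 kb and CPA1 -0.2 kb were added after their values were seen. The members and lists were chosen with earlier results of these data known.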

Additional observations from a re-analysis of the deposited data

How the results depend on the processing

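Relative to 7 gained regions (10.3%, against 17.0% of all merged regions), equal numbers of peaks in each list gave 2 (5.88%, against 9.70%). The replicate 1 pair alone gave 14 (25.5%, against 38.0%) and the replicate 2 pair alone gave 28 (57.1%, against 68.0%). Windows of 50 kb gave 21 (17.1%, against 17.0%). When 1 library was left out there were 8 to 20 (12.3% to 31.7%, against 18.3% to 43.7%). Relative to 5 lost regions (7.35%, against 2.37%), there were 0 at a −log10 p of at least 10 (against 0.269% of all). There was 1 at a −log10 p of at least 5 (1.69%, against 1.94%) and 1 with equal numbers of peaks (2.94%, against 6.03%). Replicate 1 alone gave 25 (45.5%, against 35.5%) and replicate 2 alone gave 8 (16.3%, against 5.40%). Windows of 5 kb gave 3 (6.67%, against 2.37%). When 1 library was left out there were 5 to 17 (7.94% to 26.2%, against 2.75% to 20.9%). The difference of 5.5 regions called per list was -3.5 with equal numbers of peaks, -11 with the replicate 1 libraries, 20 with those of replicate 2, and -3.5 to 14.5 when 1 library was left out. The difference in mean locus score of 7.12 was 0.985 with equal numbers of peaks, 23.6 at a −log10 p of at least 10, -8.22 with the replicate 1 libraries, 29.7 with those of replicate 2 and -0.333 to 19.8 when 1 library was left out. The cause of these changes was not tested. The signs of the pairs thus differed, and no direction over all loci held in both. By locus, the difference turned in sign in 5 of 15 alternatives at CTRB1 and in 4 of 15 at CEL. It also turned in 2 alternatives at NR5A2 and in 1 each at BHLHA15, CELA3A and PNLIP. At BHLHA15 it was -2.01 with equal numbers of peaks, and at CELA3A -5.51 with the replicate 1 libraries. It ranged from 12.3 to 46.8 at RBPJL and from 0.196 to 43.3 at CPA1. PTF1A, called in 1 library, has no such test.

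Rank calls among the regions, 0 with limma, stayed at 0 except for 10 on pileup per M reads, all higher. The other exception was 8 of 35, all lower, when regions in at least 2 lists were tested with absent calls tied below the rest. Such a tie takes the average of the ranks it spans, so its score is higher in a list that lacks more regions. Of all merged regions DMSO replicate 2 held 37658 and I-BET151 replicate 2 held 111206, so absent calls were not scored alike. The part of this in the 8 lower calls was not tested, and 11725 of 79228 regions were called. With a replicate block there were 0 calls and a difference in mean locus score of 7.12, which a block cannot change in this balanced design. The deviations of same-numbered libraries had a weak negative correlation (r = -0.14 over 25627 regions, 2 pairs), and the numbers were not taken as pairing. A weak correlation from 2 pairs cannot decide whether libraries of the same number were prepared together. With the numbers crossed in the replicate block, added after this correlation was seen, there were 0 calls among the 10 regions and 3552 in all. The replicate block as numbered gave 1637 calls in all, against 1378 without a block. The lists are limited by depth, with 13 reads as the smallest pileup of a member with DMSO and 6 with I-BET151.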

Other observations

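Between 20 and 50 kb from the gene bodies, outside the windows used above, lay 55 further regions, of which 14 were gained (25.5%, against 17.0% of all merged regions), 1 was lost (1.82%, against 2.37%) and 9 were called in all 4 lists (16.4%, against 15.6%). Within 20 kb the shares stood the other way, with 10.3% gained and 7.35% lost, and the difference was not tested. PTF1A, with no repeated region inside its window, had a region in all 4 lists at -33.7 kb, and PTF1A was its nearest protein-coding start site. Its folds were 3.96 and 3.02 with DMSO and 8.25 and 8.20 with I-BET151. Both I-BET151 folds were higher in 90.1% of all regions in all 4 lists. By rank the PTF1A region at -33.7 kb was not called (limma, adjusted p = 0.18). NR5A2 had a gained region at -32.2 kb with folds of 11.2 and 11.98, higher than those of any gained region within its window. At PRSS1 the region at +34.0 kb, nearer to PRSS2, had a fold of 4.48 in DMSO replicate 1 and of 14.3 and 14.0 with I-BET151. The lost region lay at +30.3 kb of PRSS1, with folds of 3.85 and 3.62 with DMSO. The RBPJL region at +36.8 kb stood lower with I-BET151, at percentiles of 0.967 and 5.21 against 5.99 and 10.2 with DMSO (limma, adjusted p = 0.13). The regions named here were not chosen by a rule set in advance.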
